A study of Arabidopsis thaliana with 12 samples.

Results

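The genes that encode histone H3.3 and the chaperones that place it on DNA were examined for changed chromatin accessibility in mature seeds that lack H3.3. The rule that chose the 10 genes names them by function and uses no measured value, although it was written with earlier results of these data known. They are the H3.3 genes *HTR4*, *HTR5* and *HTR8*, the genes of the HIR complex *HIRA*, *UBN1*, *UBN2* and *CABIN1*, the histone chaperone genes *ASF1A* and *ASF1B*, and *ATRX*. All 10 are among the 27444 protein-coding genes on the nuclear chromosomes of TAIR10.1. Accessibility was measured by ATAC-seq, in which the transposase Tn5 inserts sequencing adapters where DNA is not covered by nucleosomes. Nuclei sorted from mature seeds of *h3.3ko*, which had been stored after harvest, were compared with those of the WT, Col, with 2 libraries per genotype. The values available are 2 lists of regions that lost or gained accessibility in *h3.3ko*. Each region has a single unlabelled value by the authors. It was read as the log2 ratio of the mutant to Col and is called the log2 fold change below. No value per library was used here, so library depth was not used here, and neither a spread between replicates nor a test over libraries can be given. Libraries of the series from later stages, imbibed seeds and seedlings, are not used here.

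The *h3.3ko* seeds carried mutations in all 3 H3.3 genes, made with CRISPR-Cas9 in *HTR4* and *HTR5* and by a T-DNA insertion in *HTR8*. They were picked, as seeds without the fluorescent marker, from mother plants with the same mutations that were heterozygous for a *pHTR5::HTR5* rescue transgene. Maternal tissue of these seeds carried the transgene, as the mother plants did. Whether nuclei of such tissue were among those sorted was not tested. Where the edits lie within *HTR4* and *HTR5*, and where the T-DNA lies within *HTR8*, is not given in the sources used here. The lists hold no reads over these places, so the genotype could not be checked from them.

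Histone H3.3 is a variant of H3 that is made and placed on chromatin outside DNA replication, whereas H3.1 is placed during replication. In animals the HIR complex, formed around HIRA with a ubinuclein and CABIN1, places H3.3 in transcribed chromatin. ASF1 binds newly made H3 and H4 and hands them to the complexes that build nucleosomes. ATRX, a chromatin remodeller, acts in animals with another chaperone on a separate route of H3.3 deposition.

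The 3 H3.3 genes encode 1 protein. Their coding sequences, of 411 bp each with the stop codon, translated to the same 136 residues. Counted without the first residue, this protein differed from the product of each of the 5 H3.1 genes at 4 positions, 31, 41, 87 and 90. The DNA of the 3 genes was less alike than the protein. *HTR4* and *HTR5* differed at 46 coding bases (88.8% identity), *HTR4* and *HTR8* at 88 (78.6%), and *HTR5* and *HTR8* at 83 (79.8%). The longest stretch of identical bases shared by the gene bodies was 47 bp for *HTR4* and *HTR5*, 24 bp for *HTR4* and *HTR8* and 23 bp for *HTR5* and *HTR8*. The last 70 coding bases are shown as an example. In them *HTR4* and *HTR5* were more alike, and *HTR8* less like both, than over the whole coding sequence. These 70 bases are the coding bases of *HTR5* inside a region that gained accessibility, and the same part of *HTR4* lies in another such region. They are printed in the direction of transcription, on the minus strand, with capitals at the 20 positions where the 3 genes are not all alike:
HTR5, chr4:18557539-18557608: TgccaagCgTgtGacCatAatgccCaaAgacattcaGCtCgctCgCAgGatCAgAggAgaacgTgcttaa
HTR4, chr4:18555840-18555909: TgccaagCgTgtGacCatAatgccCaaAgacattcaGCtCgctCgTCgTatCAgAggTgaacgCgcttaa
HTR8, chr5:3472591-3472660: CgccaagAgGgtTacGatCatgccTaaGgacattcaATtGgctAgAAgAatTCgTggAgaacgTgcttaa

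In these 70 bases *HTR4* and *HTR5* differed at 5 positions, *HTR4* and *HTR8* at 20, and *HTR5* and *HTR8* at 17. How the mapping treated reads that lie wholly in a shared stretch was not tested.

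A listed region was counted for a gene when it overlapped the gene body, the 1 kb upstream of the transcription start site (TSS) or the 500 bp past the transcription end site (TES) by at least 1 bp. One of the 10 genes, *HTR5*, had a decreased region, where 15.8% of all protein-coding genes had one (4349 of 27444). Increased regions were found at 5 of the 10 genes, *HTR4*, *HTR5*, *HIRA*, *UBN1* and *ASF1A*, where 18.1% of all protein-coding genes had one (4963 of 27444). The other 5 genes, *HTR8*, *UBN2*, *CABIN1*, *ASF1B* and *ATRX*, had no listed region, as did 70.0% of all protein-coding genes (19202). Only *HTR5* among the 10 had regions of both kinds, as did 3.90% of all protein-coding genes (1070). The 10 genes were named for their function, some are neighbours or paralogs, and no test of these counts was made. The window searched grows with gene length, and the counts were not adjusted for it. The middle length of all protein-coding genes was 2078 bp. Among the genes with an increased region, *HIRA* (6037 bp) and *UBN1* (5134 bp) were longer, and *HTR4* (1575 bp), *HTR5* (1797 bp) and *ASF1A* (1537 bp) were shorter. *CABIN1* (10494 bp) and *ATRX* (9937 bp), the longest, had no listed region. A gene without a region may still have changed by less than the thresholds of the lists. The authors set these at a change of over 2-fold and an adjusted P under 0.05. Such a gene may also have had no peak, or none found in both replicates, which the authors required.

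**Figure D1:**
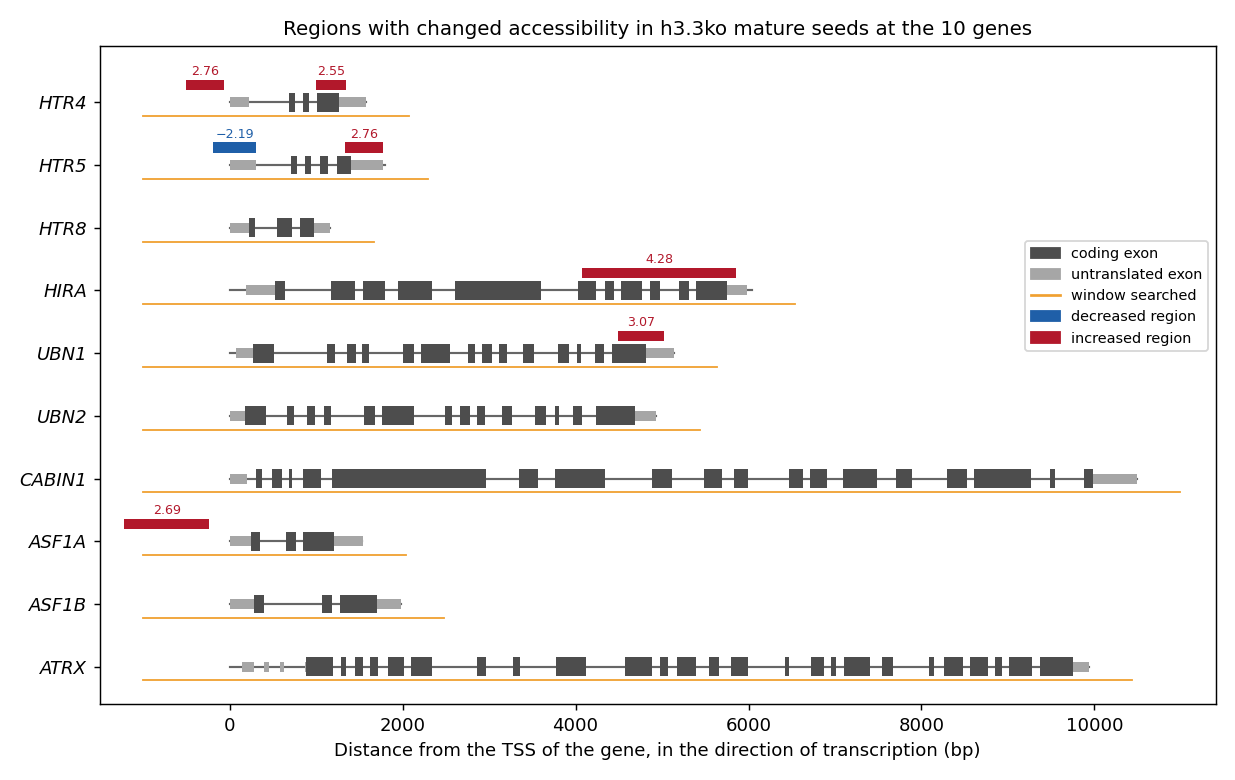
Each gene is drawn from its TSS at 0 in the direction of transcription, in bp, with the exons of its first transcript, the window searched (orange) and the listed regions above it, blue for decreased and red for increased, each with the authors' log2 fold change. The 4 increased regions that lie over a gene body are in its later part, and the only decreased region lies over the TSS of HTR5.

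These counts rest on 6 distinct regions, 1 decreased and 5 increased. The increased region over the end of *HTR5* lies within 1 kb upstream of *HTR4* and was counted for both. In the authors' deposited table, the 5 increased regions had log2 fold changes between 2.55 and 4.28, and the decreased region -2.19. The middle value of all 3436 increased regions was 2.97 (quartiles 2.39 and 3.54), and that of all 3278 decreased regions was -1.89 (quartiles -2.27 and -1.54). *HIRA* lay above the upper quartile of its list, and the other 4 increased regions lay within the quartiles. The decreased region of *HTR5* also lay within the quartiles of its list.

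*HTR5* (AT4G40040) spans chr4:18557149-18558945 (minus strand) and has 5 exons, of which the first is untranslated. Its decreased region, at 18558642 to 18559134, covered the TSS. It ran from 189 bp upstream to 303 bp inside the gene. Within the gene it took in the whole first exon, 300 bp of 5′ untranslated sequence, and 4 bp of the intron that follows, and it held no coding base of *HTR5*. The authors' log2 fold change was -2.19, which is 4.55-fold lower in *h3.3ko* and number 971 of 3278 by size. The region was 493 bp wide, close to the middle width of decreased regions (497 bp).

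The same decreased region reached 38 bp into the divergent gene AT4G40042, annotated as a microsomal signal peptidase subunit, which starts at 18559097 on the plus strand. A change there can be assigned to either gene, and the lists do not tell them apart. Sequence rich in CG pairs lay in this region, with 30 CG sites or 6.09 per 100 bp, above the upper quartile of decreased regions (4.28). The 151 bases between both genes, all inside the decreased region, are shown because they hold the start-proximal promoter of *HTR5*. They are printed on the minus strand, so that *HTR5* begins just after the last base, and capitals mark TGGGCC, the site II element recognised by TCP factors:
HTR5 upstream, chr4:18558946-18559096: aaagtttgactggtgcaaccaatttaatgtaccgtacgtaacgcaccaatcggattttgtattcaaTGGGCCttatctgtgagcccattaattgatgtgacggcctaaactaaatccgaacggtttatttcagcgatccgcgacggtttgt

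The site II match lay 85 to 80 bp upstream of the TSS. TGGGCC, on either strand, occurred in 15.5% of all protein-coding promoters, taken as the 300 bp from 250 bp before to 50 bp after the gene start, and in those of 3 of the 10 genes, *HTR5*, *HTR8* and *ASF1B*. *HTR8* and *ASF1B* had no listed region. CACGTG, the G-box core, was in 7.68% of all promoters and in none of the 10, and it was not in the decreased region of *HTR5*. AAACCCT, the telo box, was in 10.0% of all promoters and in that of *HIRA* only among the 10. TATAAA was in 52.1% of all promoters and in 3 of the 10, *UBN2*, *ASF1B* and *ATRX*. The decreased region of *HTR5* held TATAAA at 2 places, both downstream of the TSS in the first exon.

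*HTR5* also gained accessibility at its other end. Its increased region, at 18557170 to 18557608, began 21 bp from the TES and lay wholly inside the gene, in the last exon. It covered 368 bp of 3′ untranslated sequence of the first transcript and the last 70 coding bases, printed above. The authors' log2 fold change was 2.76, a 6.79-fold gain, number 2058 of 3436 by size. The 2 regions of *HTR5* thus lay at opposite ends of the gene, and no listed region touched the 3 coding exons between them.

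*HTR4* (AT4G40030) follows *HTR5* on the same strand, at chr4:18555532-18557106. Only 42 bases separate the annotated end of *HTR5* from the annotated start of *HTR4*, and they are shown because both genes meet there. They held none of the motifs searched:
between HTR5 and HTR4, minus strand, chr4:18557107-18557148: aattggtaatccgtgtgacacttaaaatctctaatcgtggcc

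The promoter window of *HTR4* therefore is the end of *HTR5*, and the increased region there ended 64 bp upstream of the *HTR4* TSS. No decreased region lay in the *HTR4* window. The nearest was the one over the *HTR5* TSS, 1536 bp upstream of *HTR4* and outside the 1 kb searched. A separate increased region, at 18555762 to 18556112, lay inside *HTR4* with its midpoint at 74.3% of the gene length. It covered all 262 coding bases of the last exon, 63.7% of the coding sequence, with 78 bp of 3′ untranslated sequence and 11 bp of intron. It ended 230 bp before the TES. The authors' log2 fold change was 2.55, a 5.86-fold gain, number 2361 of 3436. This was the smallest change among the 5 increased regions, and at 351 bp the narrowest.

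**Figure D2:**
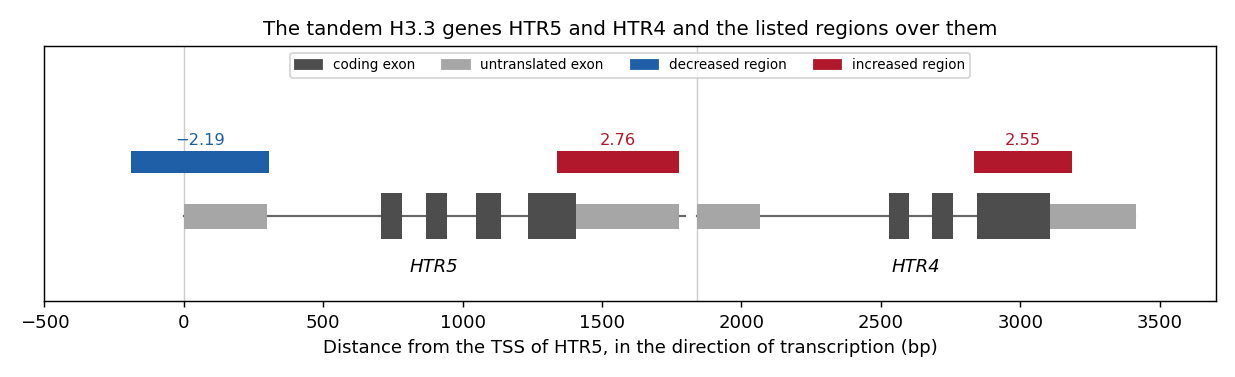
The tandem genes HTR5 and HTR4 are drawn in the direction of transcription, in bp from the TSS of HTR5, with listed regions above them (blue decreased, red increased) and the authors' log2 fold changes. Along both genes the order was a decreased region over the first TSS (-2.19), an increased region at the end of HTR5 (2.76) and an increased region over the coding part of the last exon of HTR4 (2.55).

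*HTR8* (AT5G10980), the H3.3 gene on another chromosome, spans chr5:3472405-3473570 (minus strand). It has 3 exons and, at 1166 bp, the shortest body of the 3. No listed region was within its window. The nearest increased region lay 5801 bp downstream, over AT5G10960, and the nearest decreased region 50788 bp upstream. The lists thus hold changes at the tandem pair of H3.3 genes and none at the single one. All 3 genes were mutated in *h3.3ko*, so these values compare mutant alleles with WT alleles of the genes themselves.

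The largest change among the 10 genes was at *HIRA* (AT3G44530), which encodes the central subunit of the HIR complex. The gene spans chr3:16115498-16121534 (plus strand), with 11 exons. An increased region from 16119571 to 16121354 covered 1784 bp inside the gene, from exon 6 to exon 11, and ended 180 bp before the TES. Of it, 1106 bp were coding, 107 bp were 3′ untranslated and 571 bp were intron, so that 34.8% of the coding sequence lay in a region that gained accessibility. The authors' log2 fold change was 4.28, a 19.4-fold gain and number 199 of 3436. By width it was number 151 of 3436, where the middle width was 750 bp. The nearest decreased region lay 46467 bp upstream, and none was listed at the *HIRA* promoter. By the paper's account, transcripts of genes that act in H3.3 deposition were at similar levels in WT and *h3.3ko*. Transcripts were not examined here. A stretch of 120 coding bases of this region, from the last exon, is shown on the plus strand as an example. It held none of the motifs searched, and matches in the rest of the region are not given here:
HIRA, chr3:16121008-16121127: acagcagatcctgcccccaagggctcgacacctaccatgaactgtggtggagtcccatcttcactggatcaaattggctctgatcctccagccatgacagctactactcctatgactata

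*UBN1* (AT1G21610) encodes 1 of the ubinucleins, subunits that in animals help the HIR complex hold H3.3. It spans chr1:7573830-7578963 (plus strand), with 14 exons. Its increased region, at 7578318 to 7578852, lay wholly in exon 14, the last, with 326 coding and 209 3′ untranslated bases, and ended 111 bp before the TES. The authors' log2 fold change was 3.07, an 8.42-fold gain, number 1549 of 3436. A coding stretch of 120 bases of it, on the plus strand, is shown beside that of *HIRA*. It also held none of the motifs, and matches in the rest of the region are not given here:
UBN1, chr1:7578421-7578540: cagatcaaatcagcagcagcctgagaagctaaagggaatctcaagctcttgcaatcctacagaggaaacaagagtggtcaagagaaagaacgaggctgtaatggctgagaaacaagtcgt

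Its paralog *UBN2* (AT1G77310), at chr1:29051498-29056431, also has 14 exons and a similar length, 4934 bp against 5134 bp. It had no listed region, and the nearest, a decreased one, lay 13214 bp upstream. *CABIN1* (AT4G32820), at chr4:15831163-15841656, encodes the remaining subunit and is the longest of the 10 genes at 10494 bp. It had no listed region either, the nearest being a decreased region 7778 bp downstream.

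*ASF1A* (AT1G66740, SGA2 in the annotation) spans chr1:24892340-24893876 (plus strand). No listed region lay over its body. The increased region counted for it, from 24891121 to 24892105, ended 235 bp upstream of its TSS and lay mostly over the end of the upstream gene *LIG6* (AT1G66730), which encodes a DNA ligase and is transcribed in the same direction. Of its 985 bp, 926 were inside *LIG6*, 421 of them coding in the first transcript, and 59 lay past the TES of *LIG6*. The authors' log2 fold change was 2.69, a 6.44-fold gain, number 2166 of 3436. The arrangement matched that at *HTR4*, where the region in the upstream window was also the end of another gene. The 59 bases past *LIG6*, on the plus strand, are the part of the region outside any annotated gene:
LIG6 to ASF1A, chr1:24892047-24892105: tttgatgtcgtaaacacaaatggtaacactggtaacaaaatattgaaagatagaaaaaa

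*ASF1B* (AT5G38110), at chr5:15208358-15210335, had no listed region, and the nearest lay 43675 bp downstream. *ATRX* (AT1G08600), at chr1:2723677-2733613, had none in its window. A decreased region lay 1628 bp upstream of its annotated start, over AT1G08590 and AT1G08592, with an authors' log2 fold change of -2.53. It was outside the 1 kb searched and would enter with 2 kb, as would the decreased region upstream of *HTR4*.

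**Figure D3:**
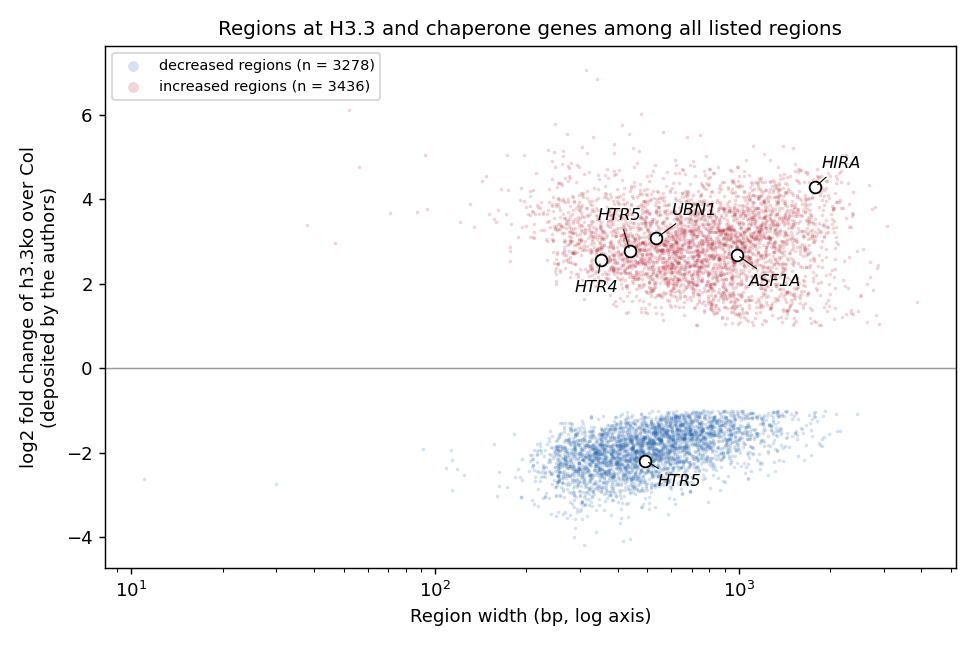
Each point is a listed region, with its width in bp on a log axis and the authors' log2 fold change, mutant over Col, blue for decreased and red for increased. Open circles mark the 6 regions at the 10 genes, named for the gene whose body they overlap or, for ASF1A, lie upstream of. HIRA (4.28, 1784 bp) lies at the upper right of its list, and the other circles lie inside the clouds.

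The 4 increased regions inside gene bodies shared their place in the gene. Their midpoints lay at 74.3% (*HTR4*), 82.2% (*HIRA*), 86.6% (*HTR5*) and 92.6% (*UBN1*) of the gene length from the TSS. Over all 3034 pairs of an increased region and a protein-coding gene that held its midpoint, the middle place was 85.6% (quartiles 78.4% and 91.5%). The regions at *HIRA* and *HTR5* lay within these quartiles, *HTR4* before and *UBN1* after them, so the places at the 10 genes were those common in the list as a whole. None of these 4 regions overlapped a second annotated gene, and each reached both coding and 3′ untranslated sequence. The density of CG pairs, which plant gene bodies can carry in methylated form, was 2.85 per 100 bp at *HTR4*, 2.80 at *UBN1*, 2.07 at *HIRA* and 1.59 at *HTR5*. The list as a whole had a middle value of 2.35 (quartiles 1.86 and 3.01), so that only *HTR5* lay outside the quartiles. CG methylation itself was not measured by this assay.

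The other H3 genes and other histone chaperones give the setting. As given above, 15.8% of all protein-coding genes had a decreased and 18.1% an increased region. Of 11 other H3 genes, among them the 5 of H3.1, none had a decreased region and 1 had an increased region. This was AT3G27360, an H3.1 gene, whose region began 397 bp past the TES and lay over the neighbours AT3G27350 and AT3G27355, with an authors' log2 fold change of 1.89. No H3.1 gene had a region over its body. With gene bodies alone, 10.5% of all protein-coding genes had a decreased and 13.0% an increased region. The 5 H3.1 genes were 723 to 833 bp long, against a middle length of 2078 bp. Whether the H3 genes differ from these shares was not tested. Of 12 genes for other chaperones, of CAF-1, FACT, the NAP1 family, NASP and SPT6, 2 had a decreased and 2 an increased region, or 16.7% each, close to the shares over all protein-coding genes given above. The decreased regions lay directly upstream of *SPT16* (AT4G10710; -2.25), a subunit of FACT, and of *NRP1* (AT1G74560; -2.68), a histone chaperone of the NAP1 family. The region upstream of *NRP1* also overlapped AT1G74570. The increased regions were at *HMG* (AT3G28730, the SSRP1 subunit of FACT), which had 1 of 2.04 over its TES and 1 of 2.58 upstream, and at *GTB1* (AT1G65440), the gene for an SPT6-like elongation factor. Of the 1019 bp over the *HMG* TES, 295 lay inside *HMG*, and the region also overlapped AT3G28740. The one upstream of *HMG* overlapped AT3G28720. The increased region of *GTB1* (log2 fold change 4.21, number 236 of 3436) was close in size to that of *HIRA*, and it too lay inside the gene, over exons 15 to 17 of 17.

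**Figure D4:**
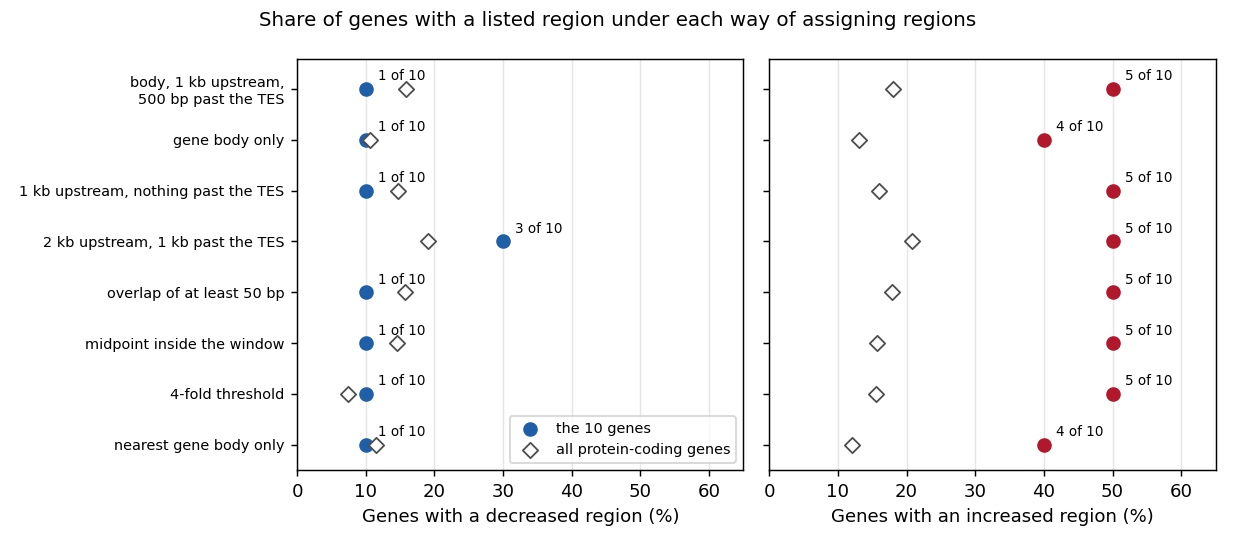
The share of genes (%) with a decreased (left) or increased (right) region is plotted for the 10 genes (filled points, with their count) and for all 27444 protein-coding genes (open diamonds) under 8 ways of assigning regions to genes. For increased regions the count was 4 or 5 of 10 in each, and for decreased regions 1 of 10 except with 2 kb upstream and 1 kb past the TES, where it was 3.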

How the data were processed

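Per the labels and the paper's methods, the authors trimmed reads with fastp 0.20.1, mapped them to TAIR10, and removed organelle reads and duplicates (Picard 2.24.0). They called peaks per replicate, kept those found in both replicates and merged the peaks across genotypes. They then computed scores in deepTools and listed the regions that differed. The deposited values, 1 per region, stand in a column that has no header and names no sample. They were read here as the authors' log2 ratio of mature *h3.3ko* to mature Col seeds, pooled over replicates. This reading rests on the descriptions of the mature seed samples, which name the lists, and on the signs, negative in the decreased and positive in the increased list. The test behind their adjusted P value and any shift for the Tn5 offset are not given in the sources used here. These values are the authors' own comparison and are given as such. No p-value was computed here.

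The files were read as BED, with starts counted from 0, and printed counting from 1. They were joined to the RefSeq annotation and sequence of TAIR10.1, whose nuclear coordinates are those of TAIR10. Exons are those of the transcript numbered 1, and gene starts and ends those of the whole gene. Promoter motifs were exact matches on either strand. Protein sequences were not printed, and residues were compared by translating the coding DNA. All 10 members were named, with genes that share a region with them, and the genes of 2 further lists that had a region. The members and lists were chosen with earlier results of these data known. The overlap step was run on simulated regions, all planted to overlap the window of a chosen gene, and 200 of 200 were returned for it. The windows came from the same code, so the run could not reveal an error in the windows. The 7 alternatives covered the window, the overlap, the fold threshold and the assignment to the nearest gene, and an eighth setting took all 33056 genes other than pseudogenes as background. Python 3.11.15, pandas 2.3.3, numpy 2.4.6 and matplotlib 3.10.9 were used.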

Additional observations from a re-analysis of the deposited data

How the results depend on the processing

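With 2 kb upstream and 1 kb past the TES, 3 of the 10 genes had a decreased region in place of 1, with *HTR4* and *ATRX* added to *HTR5*, where 19.1% of all protein-coding genes had one. Under the other 6 alternatives the count of genes with a decreased region was 1, always *HTR5*. The count with an increased region was 5, or 4 with gene bodies alone and with assignment to the nearest gene body, where *ASF1A* dropped out. The share of all protein-coding genes with an increased region was then 13.0% and 12.1%, against 18.1%. With the 4-fold threshold all 6 regions remained, while the share of all genes fell from 15.8% to 7.34% for decreased and from 18.1% to 15.6% for increased regions. Taking all genes other than pseudogenes as background gave shares of 15.2% for decreased and 16.4% for increased regions. No paired analysis was possible because the lists give 1 value per region and none per library, and for the same reason no replicate could be left out. Without depth or coverage, a missing region cannot be told from a change below the thresholds.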
